A study of Mus musculus with 8 samples.

Results

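Plasma cells were examined in 3 Microwell-seq libraries of mouse allografts, in which each barcode stands for 1 microwell and each unique molecular identifier (UMI) for 1 captured transcript. A passing cell had at least 500 UMIs and at most 10% of them from mitochondrial genes. A passing cell was taken as a plasma cell when Mzb1, Derl3, Xbp1, Tnfrsf17 and Sdc1 summed to at least 4 UMIs, Jchain had at least 5 UMIs, Cd3d, Cd3e, Cd3g and Trac summed to at most 1 UMI and Csf1r had 0. The rule selected 329 of 29005 passing cells in these libraries, of 47541 passing cells in the series. These genes chose the cells, so their levels are descriptions and support nothing.

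The series held 8 libraries from liver, heart and kidney grafts and from recipient blood, 1 per organ and fraction. BALB/c organs from mice 8 weeks old had been placed in C57BL/6J recipients without immunosuppression and were taken on day 7, and the labels give male BALB/c for every library. Liver PC is the solid-organ fraction of the liver graft, and TIL are the lymphocytes isolated from a graft. The study's methods describe pairs of recipients per organ, and whether a library mixes animals was not given in the sources used here. With 1 library per group there was no replicate, so no difference between libraries could be tested and every statement below compares libraries and not conditions. All intervals are exact 95% intervals, Clopper-Pearson for shares of cells and Poisson for summed UMIs, and cover counting error only. The limit that a count of 0 allows is given apart from these, as 3 counts of the total.

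Both TIL libraries went against their labels in the genes of the organ. Among cells that were not plasma cells, the library labelled liver TIL did not list Alb, the main hepatocyte secretory product, and had 47.1 UMIs per 1000000 (CPM) of cardiac troponin Tnnt2. The library labelled heart TIL had 114 CPM of Alb and 0.441 CPM of Tnnt2. Liver PC had 75.2 CPM of Alb and 0.369 CPM of Tnnt2. The names below are therefore those of the labels, and no organ is read from them.

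Plasma cells are the antibody-secreting end stage of the B lineage. They switch off most of the B cell program, enlarge the endoplasmic reticulum (ER) and devote much of their transcript pool to 1 heavy and 1 light chain. Plasmablasts are their dividing precursors. IgM and IgA are assembled into polymers by the J chain that Jchain encodes, and IgA is the main antibody of mucosal surfaces and bile.

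The library labelled liver TIL held 238 plasma cells of 9337 passing cells, or 2.55% (2.24 to 2.89). Liver PC held 56 of 10000, or 0.56% (0.423 to 0.727), and the library labelled heart TIL held 35 of 9668, or 0.362% (0.252 to 0.503). The interval of the library labelled liver TIL lay above both others, and those of liver PC and the library labelled heart TIL overlapped. In the remaining libraries the same rule found 2 cells in liver PBMC, 1 in heart PBMC, 1 in kidney PBMC, and 0 in kidney PC and in kidney TIL. The 0 of 795 passing cells in kidney PC allows a share of up to 0.377%, and the 0 of 2004 in kidney TIL one of up to 0.15%.

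The limits on T cell genes and Csf1r alone stopped a further 38 cells in liver PC, 105 in the library labelled liver TIL and 43 in the library labelled heart TIL. At the edge of the rule, the 38 cells of the library labelled liver TIL with a marker sum of exactly 4 had a median immunoglobulin share of 35.7% of UMIs, and the 45 with a sum of 3 had 24.4%. Liver PC had 3 cells at a sum of 4 and 2 at a sum of 3, and the library labelled heart TIL had 2 and 2. Barcodes are drawn from a finite set: 2, 31 and 3 plasma cells of liver PC and of the libraries labelled liver TIL and heart TIL shared a barcode with a cell of another library, and none of those was a plasma cell there.

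Plasma cells of liver PC were more deeply captured than the others. They had 694 to 5602 UMIs per cell with a median of 1823, against a median of 852 (502 to 3773) in the library labelled liver TIL and 976 (555 to 3131) in the library labelled heart TIL. The median number of genes was 769.5, 394.5 and 487. Shares and CPM rather than raw counts are therefore set side by side, with genes outside the immunoglobulin loci scaled to the UMIs outside those loci.

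Immunoglobulin transcripts filled a large part of the UMIs of most plasma cells. The median share was 25.9% in liver PC (1.22% to 56.8% over cells), 32.8% in the library labelled liver TIL (6.54% to 61.8%) and 24.3% in the library labelled heart TIL (6.90% to 48.9%). The medians of the other passing cells were 0.216%, 2.66% and 0.314%. The other cells of the library labelled liver TIL thus carried the most immunoglobulin RNA.

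Immunoglobulin transcripts also occurred in gated T cells of all 3 libraries. T cells, gated on at least 3 UMIs of Cd3d, Cd3e, Cd3g and Trac and 0 of Csf1r, should lack immunoglobulin transcripts. After each cell was thinned to 500 UMIs, Igkc had a UMI in 51.2% of gated T cells of liver PC, 96.3% of those labelled liver TIL and 63.2% of those labelled heart TIL, and their median depths before thinning were 1506, 851 and 866 UMIs. Igha had a UMI in 18.2%, 89.2% and 23.7% of the same T cells. Jchain, a gene of the rule, had a UMI in 9.34%, 53.8% and 12.5% of them, with medians of 0, 1 and 0 UMIs. The part of free Jchain RNA in the shares of plasma cells was not tested. Thinned plasma cells had a median of 67, 88 and 64 Igkc UMIs, against 1, 7 and 1 in the T cells. The isotype of a plasma cell was read from its leading chain, defined next, but this does not remove the background either. By the same definition Igha led in 1800 of 1831 gated T cells labelled liver TIL that had a leading chain, or 98.3% (97.6 to 98.8), in 43.7% of 1206 in liver PC and in 45.6% of 524 labelled heart TIL. Thinned T cells held a median of 0, 3 and 0 Igha UMIs in liver PC and in the libraries labelled liver TIL and heart TIL, and thinned plasma cells labelled liver TIL a median of 62. The part of this background in the isotype shares was not tested.

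IgA led in the library labelled liver TIL. The leading heavy chain was the constant gene with at least 50% of a cell's heavy chain UMIs, given 3 or more, which left 2 cells labelled liver TIL and 1 labelled heart TIL without one. Igha, the IgA constant gene on chromosome 12 (GRCm38, 113254830 to 113260236, minus strand), led in 202 of 236 plasma cells of that library, or 85.6% (80.5 to 89.8). It led in 21 of 56 cells of liver PC, or 37.5% (24.9 to 51.5), and in 13 of 34 of the library labelled heart TIL, or 38.2% (22.2 to 56.4). The interval of the library labelled liver TIL did not meet the other 2, which overlapped almost entirely.

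**Figure D1:**
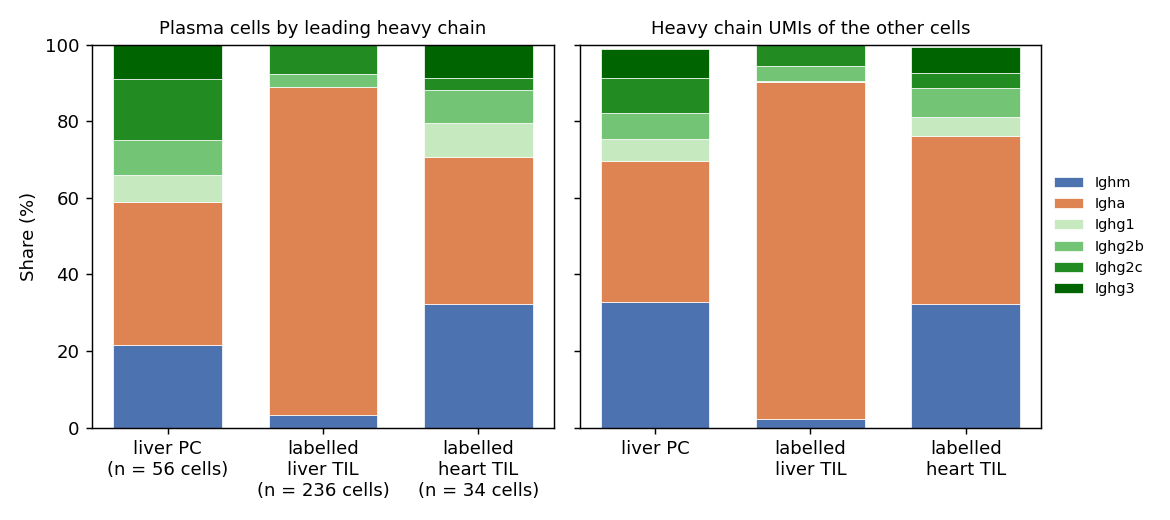
The left panel gives the share (%) of plasma cells led by each heavy chain constant gene in each library, and the right panel the share of heavy chain UMIs in all other passing cells. The library labelled liver TIL is mostly Igha in both panels (85.6% of plasma cells and 87.9% of UMIs), whereas Ighm and the Ighg genes take most of the bars of liver PC and the library labelled heart TIL.

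IgM and IgG filled the rest. Ighm, the constant gene of the first isotype a B cell makes, led in 12 of 56 plasma cells of liver PC, or 21.4% (11.6 to 34.4), in 8 of 236 labelled liver TIL, or 3.39% (1.47 to 6.57, and 6.90% in cells with at least 1000 UMIs), and in 11 of 34 labelled heart TIL, or 32.4% (17.4 to 50.5). An Ighg gene led in 23 cells of liver PC, or 41.1% (28.1 to 55.02), in 26 cells labelled liver TIL, or 11.0% (7.32 to 15.7), and in 10 cells labelled heart TIL, or 29.4% (15.1 to 47.5). Both the IgM and the IgG shares of the library labelled liver TIL had intervals below those of liver PC. In cells with at least 1000 UMIs the IgM intervals overlapped (2.57 to 14.4 labelled liver TIL, 12.03 to 37.3 in liver PC). The IgG intervals stayed apart there (5.65 to 20.1 and 27.6 to 56.8).

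The IgG subclasses differed too. In liver PC, Ighg2c led in 9 cells, Ighg2b in 5, Ighg3 in 5 and Ighg1 in 4. In the library labelled heart TIL, Ighg1, Ighg2b and Ighg3 led in 3 cells each and Ighg2c in 1. In the library labelled liver TIL, Ighg2c led in 18 cells and Ighg2b in 8, whereas Ighg1 and Ighg3 led in 0 of 236, which allows a share of up to 1.27%. Its 238 plasma cells held 1 UMI of Ighg1 and 17 of Ighg3 among all heavy chain UMIs, and its other cells 201 and 36. The Ighg genes are close copies of each other, so subclass counts depend on how the authors' counting split shared reads. C57BL/6 mice carry Ighg2c and BALB/c mice Ighg2a at that place in the locus, and reads were aligned to the C57BL/6 genome, so donor and recipient cells cannot be told apart by it.

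Single cells were close to pure for 1 heavy chain. In the 21 IgA cells of liver PC the leading gene had 111 to 364 UMIs, with a median of 190, and a median of 99.5% of heavy chain UMIs. In the 202 IgA cells labelled liver TIL it had 5 to 280 UMIs, with a median of 122.5, and 99.4%. The 18 Ighg2c cells labelled liver TIL had a median of 95 UMIs and 94.2%, and 14 of them passed 90%. The lower purity of non-IgA cells there goes with the Igha UMIs in T cells of that library, whose part in it was not tested. Igha also had the largest share of heavy chain UMIs in the other cells, with 87.9% in the library labelled liver TIL, 36.7% in liver PC and 43.9% in the library labelled heart TIL.

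Since the rule demanded Jchain, it could favour isotypes that form polymers. Jchain per 10000 UMIs had a median of 374 in IgA, 198 in IgM and 153 in IgG cells of liver PC. The same medians were 362, 295 and 238 in the library labelled liver TIL, and 389, 169 and 146 in the library labelled heart TIL. IgA cells were the highest in all 3 libraries. The lowest IgG cell had 5 UMIs of Jchain in liver PC and in the library labelled liver TIL, at the minimum of the rule. The lowest IgA cell labelled liver TIL also had 5, and that of liver PC had 29. Cells with less Jchain, IgG cells among them, could thus have been left out. Without a Jchain minimum and with at least 20 immunoglobulin UMIs instead, a setting chosen after seeing the data, the IgA shares were 36.8%, 83.9% and 33.3% and the IgG shares 42.1%, 12.4% and 35.9%.

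By their medians, IgA cells also carried more immunoglobulin than IgM cells. In liver PC, the 21 IgA cells had a median immunoglobulin share of 30.7% (17.2% to 49.2%), the 23 IgG cells 25.8% (1.22% to 56.8%) and the 12 IgM cells 17.8% (9.83% to 40.7%). In the library labelled heart TIL, the medians were 34.1% for IgA, 19.2% for IgG and 20.1% for IgM cells. In the library labelled liver TIL, they were closer, with 33.8% for IgA, 32.4% for IgG and 26.9% for IgM cells. The ranges of the classes overlapped in every library. IgM cells of liver PC had the most UMIs, with a median of 2159 against 1750 in IgA and 1668 in IgG cells.

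**Figure D2:**
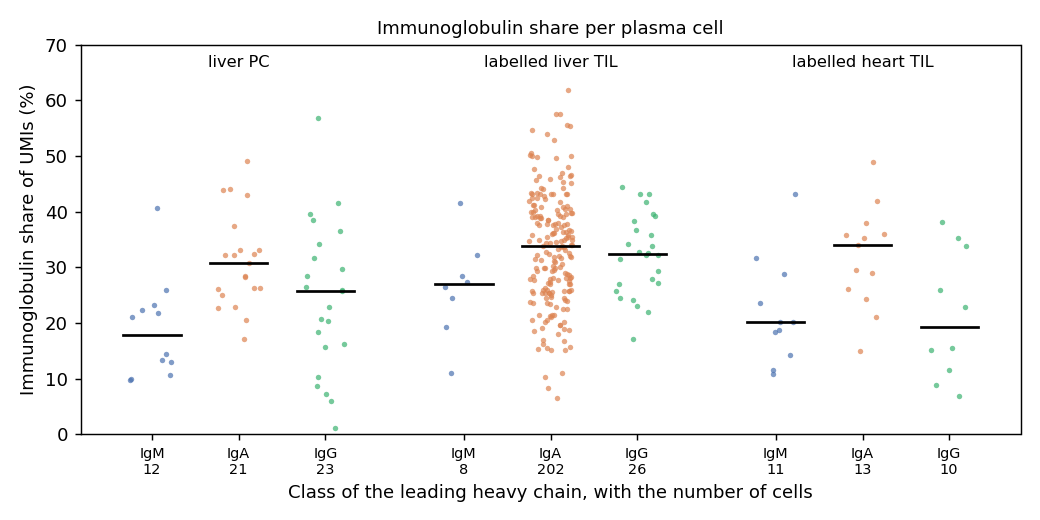
Each point is 1 plasma cell, placed by its immunoglobulin share of UMIs (%) and grouped by library and class of the leading heavy chain, with black bars at the medians. IgM lies lowest in liver PC (median 17.8%) and IgA highest in each library (30.7%, 33.8% and 34.1%), with wide overlap.

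Kappa was the light chain of nearly all plasma cells. Igkc, on chromosome 6 (GRCm38, 70726435 to 70726966, plus strand), led over the summed lambda constant genes in 55 of 56 cells of liver PC, 235 of 238 labelled liver TIL and 34 of 35 labelled heart TIL. The kappa shares were 98.2% (90.4 to 99.95), 98.7% (96.4 to 99.7) and 97.1% (85.1 to 99.9). These intervals overlapped. The other passing cells with a leading light chain stood at 99.5%, 99.9% and 98.6%, so the shares of the plasma cells did not stand above the background of their libraries.

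Iglv1, a lambda variable gene, did not follow the leading light chain. It had 572 UMIs spread over 51 of the 55 kappa cells of liver PC, 1821 UMIs over 208 of 235 labelled liver TIL and 178 UMIs over 30 of 34 labelled heart TIL. The few lambda-led cells had 4 UMIs in 1 cell, 13 in 2 of 3 cells and 1 in 1 cell. Whether these reads come from Iglv1 or from a sequence like it was not tested, and Iglv1 was left out of the counts of variable genes.

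Variable genes were sparsely captured. A leading Ighv gene, with 50% or more of at least 2 UMIs of the family, could be given to 18 plasma cells of liver PC, 14 labelled liver TIL and 0 labelled heart TIL. The 18 cells used 11 different genes, with Ighv1-26 leading in 5 and Ighv1-82 in 3. The 14 cells used 10 different genes, with Ighv1-18 leading in 3 and Ighv1-82 and Ighv9-3 in 2 each. A leading Igkv gene was found in 34, 25 and 3 cells, and the 34 cells of liver PC used 23 genes and the 25 cells labelled liver TIL used 14. The most common were Igkv10-96 in 5 cells of liver PC, Igkv3-1 in 4 cells labelled liver TIL and Igkv4-55 in 2 cells labelled heart TIL. Among the cells with a leading gene, no Ighv or Igkv gene led in most of them in liver PC or the library labelled liver TIL. The remaining plasma cells had no leading gene, so the variety of genes over all plasma cells cannot be read. Cells of 1 clone also cannot be told apart from cells that share a gene.

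Most genes of plasma cell identity that the rule did not use were higher in plasma cells, and since they vary with the genes of the rule they are given as description. In liver PC, 9 of 12 counted genes were at least 2-fold higher in plasma cells than in the other passing cells, in the library labelled liver TIL 10 of 13 and in the library labelled heart TIL 7 of 8. At least 2-fold lower were 2 of 12, 1 of 13 and 0 of 8 genes: the costimulatory receptor Cd27, with 46.3 CPM in plasma cells and 193 CPM in the other cells of liver PC and 43.5 against 121 CPM labelled liver TIL, and the ectoenzyme Cd38, with 34.7 against 142 CPM in liver PC, both of which T cells also express. A gene was counted when plasma cells held at least 10 of its UMIs, or would at the level of the other cells. Over all genes counted, leaving out immunoglobulin genes and genes of the rule, 17% of 1763, 14.4% of 2778 and 18.3% of 662 were at least 2-fold higher, and 19.9%, 14.7% and 16.2% at least 2-fold lower. Folds are of CPM with a pseudocount of 1 CPM.

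Eaf2, an elongation factor partner found in germinal centre and plasma cells, had 1064 CPM in plasma cells of liver PC against 8.48 CPM in the other cells, 1037 against 39.8 labelled liver TIL, and 903 against 10.04 labelled heart TIL. Pou2af1, the B lineage coactivator OBF-1, had 740 CPM in plasma cells of liver PC, 341 labelled liver TIL and 208 labelled heart TIL, against 15.7, 20.6 and 5.96 CPM in the other cells. The plasma cell factors Irf4 and Prdm1 were caught at the edge of detection, with 7, 10 and 1 UMIs of Irf4 and 4, 9 and 2 UMIs of Prdm1 over all plasma cells of the 3 libraries. Ly6c2, a marker of plasma cells that monocytes and T cells share, had 2915, 2092 and 1598 CPM in plasma cells and 1897, 1125 and 1131 CPM in the other cells, a difference of less than 2-fold in each library.

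Of the B cell program, the receptor subunit Cd79b was higher than in the other cells of each library, and the antigen-presenting genes named here were not. The other cells are not B cells alone, so these values do not show how much of a B cell's level was kept. Cd79b, a signalling subunit of the receptor, had 393, 323 and 382 CPM in plasma cells of liver PC and of the libraries labelled liver TIL and heart TIL, against 30.6, 34.4 and 27.0 CPM in the other cells. Cd79a, its partner, had 231 CPM in liver PC, or 20 UMIs in 12 cells, but 37.2 CPM labelled liver TIL and 34.7 CPM labelled heart TIL. In liver PC, 13 of those 20 UMIs lay in the 12 IgM cells. Cd74, the invariant chain of MHC class II, had 4732, 6133 and 6252 CPM in plasma cells and 4828, 11779 and 7762 CPM in the other cells, and H2-Ab1, a class II chain, had 1897, 3538 and 3230 CPM against 2966, 7608 and 4850 CPM. The list counted 4 of 9, 3 of 8 and 1 of 5 genes at least 2-fold higher and 1, 3 and 0 at least 2-fold lower, with median log2 folds of -0.03, -0.66 and -0.57. Over all genes counted, 17%, 14.4% and 18.3% were higher and 19.9%, 14.7% and 16.2% lower.

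The secretory machinery stood at a similar, high level in plasma cells of all 3 libraries. The rule chose cells by Mzb1, Derl3 and Xbp1, with which secretory genes vary, so the high level is given as description. A minimum of 4 UMIs also asks more of cells labelled liver TIL (median 852 UMIs) than of cells of liver PC (median 1823). Its part in the similarity between libraries was not tested. The 5 lists of secretory genes, fixed with earlier results of these data known, held 107 genes and together took 6.12% (5.96 to 6.29) of the UMIs outside immunoglobulin genes in plasma cells of liver PC. They took 6.43% (6.31 to 6.56) in the library labelled liver TIL and 6.11% (5.83 to 6.40) in the library labelled heart TIL. The interval of the library labelled liver TIL lay just above that of liver PC, but the order turned with the total: of all UMIs, the lists took 4.76% (4.63 to 4.89) in liver PC and 4.41% (4.33 to 4.50) labelled liver TIL. It also turned without the 5% of plasma cells with the most UMIs, with 6.57% and 6.45%. The other cells had 1.46%, 1.73% and 1.56%. Per plasma cell the share ran from 1.56% to 12.9% with a median of 6.72% in liver PC, from 0.923% to 15.2% with a median of 6.30% labelled liver TIL, and from 2.96% to 12.03% with a median of 6.43% labelled heart TIL.

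Secretion starts at the ER membrane. The translocon threads new chains through the ER membrane, and the signal peptidase cuts their leader. Of this list, 23 of 26 counted genes in liver PC, 23 of 27 labelled liver TIL and 18 of 21 labelled heart TIL were at least 2-fold higher in plasma cells, with median log2 folds of 1.86, 1.79 and 1.99 beside 0.09, 0.05 and 0.12 over all genes counted. Of all genes counted, 17%, 14.4% and 18.3% were at least 2-fold higher. Sec11c, a catalytic subunit of signal peptidase, had 3008, 3724 and 3578 CPM against 386, 494 and 501 CPM. Its paralog Sec11a had 208, 304 and 174 CPM against 199, 244 and 255 CPM, so the plasma cells differed in Sec11c by a log2 fold of 2.96, 2.91 and 2.83 and in Sec11a by 0.07, 0.32 and -0.55. Sec61b, a subunit of the channel itself, had 2985, 2185 and 1772 CPM against 729, 556 and 621 CPM.

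Chaperones and disulfide bond enzymes, which fold the chains, followed the same pattern. They were at least 2-fold higher for 22 of 25, 22 of 26 and 20 of 21 counted genes, with median log2 folds of 2.39, 1.94 and 2.42. The shares higher over all genes counted were 17%, 14.4% and 18.3%. Hsp90b1, the ER chaperone GRP94, had 3945 CPM in plasma cells of liver PC, 3458 labelled liver TIL and 3300 labelled heart TIL, against 334, 398 and 250 CPM in the other cells. Hspa5, the chaperone BiP that holds unpaired heavy chains, had 1863, 2104 and 1980 CPM against 353, 540 and 407 CPM. Fkbp11, a prolyl isomerase of secretory cells, had 833, 1068 and 1112 CPM against 9.32, 56.2 and 18.9 CPM, the largest fold of the list in each library (log2 6.34, 4.22 and 5.81). Creld2, an ER stress-induced folding factor, had 879 CPM in liver PC but 1738 labelled liver TIL and 1563 labelled heart TIL.

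**Figure D3:**
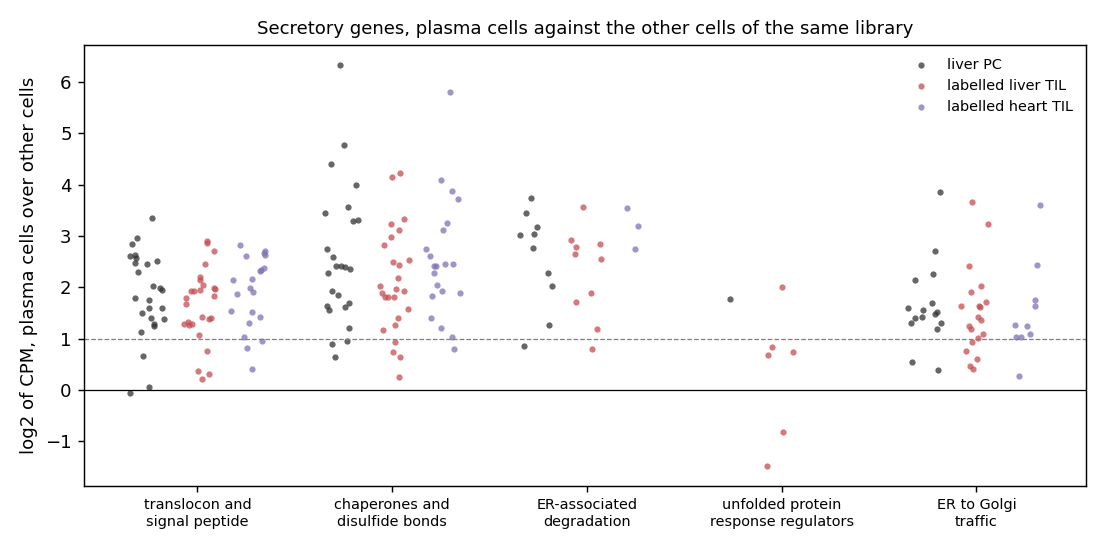
Each point is 1 gene of a secretory list, placed by the log2 fold of its CPM in plasma cells over the other passing cells of the same library, with colours for libraries, a solid line at 0 and a dashed line at 2-fold. Most points of the translocon (23 of 26, 23 of 27 and 18 of 21) and chaperone lists (22 of 25, 22 of 26 and 20 of 21) lie above the dashed line. Of all genes counted, 17%, 14.4% and 18.3% were at least 2-fold higher. Fkbp11 is the highest point (log2 6.34 in liver PC).

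The promoters of several chaperone genes hold the ER stress response element (ERSE), a site known to be bound by Xbp1 and Atf6 together with NF-Y. The letters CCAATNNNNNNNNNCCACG were searched on both strands from 250 bases before to 50 after each gene's start, in RefSeq promoters of build GRCm38.p6. They were found in 37 of 27025 genes, or 0.137%, and in 8 of the 24 chaperone genes with a promoter in the table. Of 10 degradation genes 1 held them, and 0 of 21 translocon, 0 of 12 regulator and 0 of 19 ER to Golgi genes. A match is a description of letters and not of binding, and the lists were built from genes known to respond to ER stress.

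The matched stretches of genes described here are shown on the strand that reads as the element, 5′ to 3′, with the element in capitals and 5 bases on each side, so that the promoters of folding genes with large and small differences can be read side by side.
Hspa5: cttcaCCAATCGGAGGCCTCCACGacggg
Hsp90b1: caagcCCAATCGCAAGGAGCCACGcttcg
Pdia6: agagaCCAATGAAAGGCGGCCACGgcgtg
Dnajc3: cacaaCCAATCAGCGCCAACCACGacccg
Creld2: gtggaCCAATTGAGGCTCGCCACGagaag
Syvn1: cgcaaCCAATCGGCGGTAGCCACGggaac
Derl3: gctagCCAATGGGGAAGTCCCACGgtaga
Canx: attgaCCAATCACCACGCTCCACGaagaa

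In these promoters the stretch of Hspa5 lies at chr2:34772020-34772048 on the plus strand and that of Hsp90b1 at chr10:86705633-86705661 on the minus strand. Hsp90b1 holds a second match at chr10:86705528-86705556 on the plus strand. Creld2 holds its match at chr15:88819515-88819543 on the minus strand, opposite to the gene, and Syvn1 at chr19:6046527-6046555 on the plus strand. The genes did not share 1 size of difference. Creld2 stood at a log2 fold of 3.46, 3.34 and 4.08 in liver PC and in the libraries labelled liver TIL and heart TIL, Dnajc3, an Hsp70 co-chaperone, at 2.42, 2.54 and 2.46, and Pdia6, a disulfide isomerase, at 2.43, 1.82 and 1.83. Canx, the lectin chaperone calnexin, stood at only 0.64 (-0.07 to 1.28), 0.65 (0.07 to 1.18) and 0.15 (-2.13 to 1.71). Derl3 is a gene of the rule and gets no fold.

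ER-associated degradation, which returns misfolded chains to the cytosol, was at least 2-fold higher for 9 of 10, 9 of 10 and 3 of 3 counted genes. The shares higher over all genes counted were 17%, 14.4% and 18.3%. Edem1, which marks misfolded glycoproteins, had 752 CPM in plasma cells of liver PC, 1024 labelled liver TIL and 695 labelled heart TIL, against 55.2, 85.1 and 58.3 CPM in the other cells. Ube2j1, a ubiquitin-conjugating enzyme of the pathway, had 463, 503 and 556 CPM against 67.4, 72.5 and 59.9 CPM. Syvn1, the ligase HRD1 of the same pathway, had 150, 149 and 278 CPM against 17.8, 24.6 and 14.1 CPM. The ER to Golgi list was higher for 14 of 16, 15 of 20 and 9 of 10 genes, beside the same shares over all genes. Lman1, the cargo receptor ERGIC-53 that carries IgM, had 555, 912 and 556 CPM against 37.5, 71.0 and 44.7 CPM.

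The regulators of the unfolded protein response differed between libraries in single genes. Summed, they had 821 CPM (642 to 1036) in plasma cells against 430.4 CPM in the other cells of liver PC. They had 757 (629 to 904) against 607 labelled liver TIL and 347 (167 to 639) against 445 labelled heart TIL. The interval of plasma cells labelled liver TIL overlapped both others. Of this list 1 of 1 counted gene in liver PC was at least 2-fold higher, beside 17% over all genes there. In the library labelled liver TIL 1 of 6 was higher and 1 lower, beside 14.4% and 14.7% over all genes. In the library labelled heart TIL no gene was counted. Atf4, the translation-controlled transcription factor of the PERK branch, had 544 CPM in plasma cells of liver PC, against 158 CPM in the other cells. It had 217 CPM labelled liver TIL and 139 CPM labelled heart TIL, against 135 and 100.04 CPM. Atf4 was lower in plasma cells labelled liver TIL than in liver PC (log2 -1.32, -1.998 to -0.66), while the other cells differed by a log2 fold of -0.22. Other regulators were higher there: Ddit3, the stress factor CHOP, had 13 UMIs against 0, Nupr1, a stress-induced chromatin protein, 14 against 1, and Ppp1r15a, the phosphatase subunit GADD34, 20 against 3, and the other cells differed in the same direction by log2 folds of 1.37, 0.95 and 1.20. The regulators summed to 71, 122 and 10 UMIs, so low counts limit what this list can show.

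The metabolic lists differed in how many of their genes were higher. Of the amino acid supply genes, 5 of 6 counted in liver PC and 3 of 7 labelled liver TIL were at least 2-fold higher and 0 lower, with median log2 folds of 1.49 and 0.99, and none was counted labelled heart TIL. Over all genes counted, 17% and 14.4% were higher in these libraries. Slc3a2, the heavy subunit of amino acid transporters, had 578, 441 and 313 CPM against 159, 222 and 172 CPM. Of the glycolysis and respiration genes 0 were 2-fold higher in any library, and 3 of 13, 2 of 14 and 1 of 12 were 2-fold lower. Over all genes counted, 19.9%, 14.7% and 16.2% were lower, so the lower counts do not set this list apart.

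Of the survival list, 3 of 6 counted genes in liver PC and 4 of 7 labelled liver TIL were at least 2-fold higher and 0 lower. The 1 gene counted labelled heart TIL was lower (log2 -1.79). Of all genes counted, 17% and 14.4% were higher in the first 2 libraries, and 16.2% were lower labelled heart TIL. Receptors for the survival signals BAFF and APRIL were present at low counts. Tnfrsf13b, the receptor TACI, had 13 UMIs in 10 plasma cells of liver PC, 15 in 15 labelled liver TIL and 6 in 4 labelled heart TIL, or 150, 93.1 and 208 CPM against 21.0, 23.4 and 20.2 CPM. Tnfrsf13c, the BAFF receptor of mature B cells, had 14 UMIs in 12 cells of liver PC and 16 in 14 labelled liver TIL, but 0 labelled heart TIL. Bcl2l11, the death promoter Bim, had 197 CPM in liver PC and 192 CPM labelled liver TIL against 58.0 and 46.5 CPM in the other cells, and again 0 UMIs labelled heart TIL. The plasma cells of the library labelled heart TIL hold the fewest UMIs, so these 2 absences are small counts.

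Of the homing and adhesion list, 0 of 8 counted genes in liver PC and 1 of 11 labelled liver TIL were at least 2-fold higher and 2 and 3 at least 2-fold lower, with median log2 folds of -0.52 and -0.27, and none was counted labelled heart TIL. Over all genes counted, 17% and 14.4% were higher and 19.9% and 14.7% lower, so these small counts do not set the list apart. The gene of the list that was higher was Ccr10, which encodes the receptor for mucosal chemokines that IgA plasma cells use. It had 24 UMIs in 22 plasma cells of the library labelled liver TIL, or 149 CPM against 8.01 CPM in the other cells (log2 4.06, 3.47 to 4.92). Liver PC had 3 UMIs and the library labelled heart TIL 1, or 34.7 CPM each. By class, 23 of the 24 UMIs lay in 21 of the 202 IgA cells (171 CPM, 108 to 256), 1 in 26 IgG cells and 0 in 8 IgM cells. The IgG cells had 56.9 CPM (1.44 to 317), an interval that holds that of the IgA cells. Itgb7, an integrin subunit of gut homing, had 369 CPM (169 to 700) in IgA cells of liver PC and 107 CPM (29.1 to 274) in IgG cells, and 178 CPM in IgA cells labelled liver TIL, where the other passing cells had 180 CPM.

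Cxcr3, the receptor for interferon-induced chemokines, had 139, 99.3 and 243 CPM in plasma cells against 148, 120 and 121 CPM in the other cells, which hold many T cells. Ly6c2 differed by class in the library labelled liver TIL, with 6372 CPM (5246 to 7667) in IgG, 1553 CPM (1349 to 1778) in IgA and 1614 CPM (859 to 2759) in IgM cells. In liver PC it had 4086 CPM (3464 to 4787) in IgG, 1557 CPM (1102 to 2137) in IgA and 2481 CPM (1898 to 3188) in IgM cells. In the library labelled heart TIL the order was another, with 3704 CPM in IgA, 1258 in IgM and 383 in IgG cells. Since UMIs of 1 cell are not independent, these intervals are too narrow for a statement about classes.

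Part of the plasma cells carried cell cycle transcripts. A list of 62 S phase and G2 and M phase genes was counted after thinning each cell to 500 UMIs, and cells with 2 or more UMIs were counted. This held for 35 of 56 plasma cells of liver PC, or 62.5% (48.5 to 75.1), 102 of 238 labelled liver TIL, or 42.9% (36.5 to 49.4), and 20 of 35 labelled heart TIL, or 57.1% (39.4 to 73.7). Without thinning the shares were 85.7%, 55.9% and 74.3%. The intervals of the library labelled liver TIL and of liver PC overlapped at this setting but not without thinning (49.3 to 62.3 and 73.8 to 93.6), where the share also rises with the greater depth of liver PC. At 3 or more UMIs they were also apart, with 27.3% (21.8 to 33.4) labelled liver TIL and 50% (36.3 to 63.7) in liver PC. The other passing cells differed in the same direction. They stood at 29.6% labelled liver TIL and 48.0% in liver PC at 3 or more UMIs, and at 65.9% and 91.3% without thinning. The gap is thus not particular to the plasma cells.

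The measure is broad, and the other cell types show its background. Gated T cells stood at 78.1%, 65.8% and 78.4%. Cells with at least 2 UMIs of Csf1r and at most 1 of the T cell genes, a myeloid gate, stood at 31.9%, 28.9% and 44.9%. All passing cells outside the rule stood at 64.8%, 49.0% and 68.0%, above the plasma cells by point value. Immunoglobulin RNA takes up part of a plasma cell's 500 UMIs. When cells were instead thinned to 300 UMIs outside immunoglobulin genes, plasma cells stood at 58.9% (45.0 to 71.9), 36.6% (30.4 to 43.1) and 54.3% (36.6 to 71.2), gated T cells at 60.4%, 47.6% and 58.1% and the myeloid gate at 20.8%, 17.5% and 25.9%. All other passing cells then stood at 47.4%, 32.6% and 47.6%, below the plasma cells by point value. Plasma cells thus lay above the myeloid gate in each library by point value, with intervals apart in liver PC and in both TIL libraries on this second scale. No dividing state is read from the counts of single cells, and the part of free RNA in them was not tested.

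**Figure D4:**
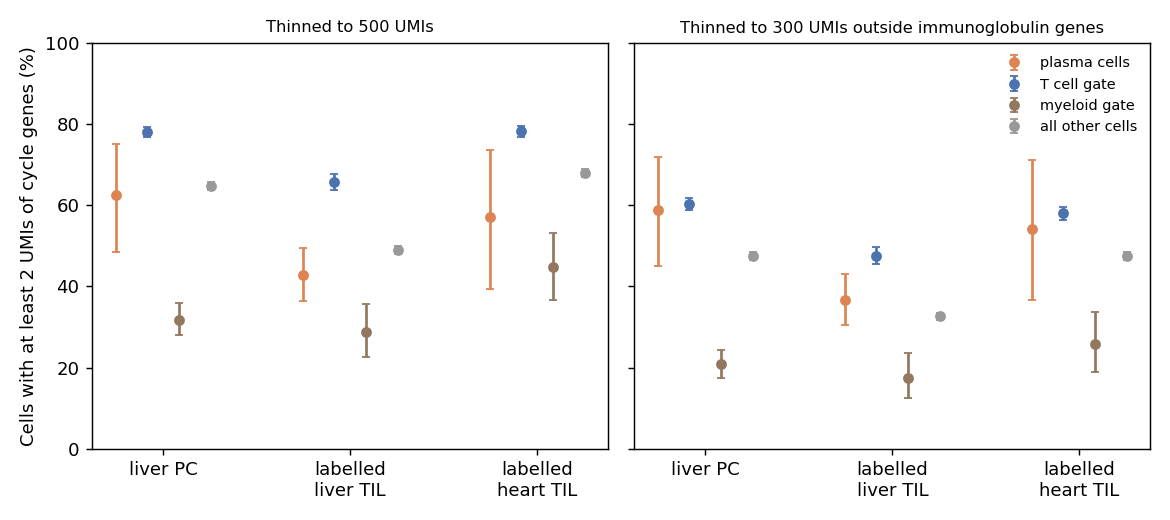
Points give the share (%) of cells with at least 2 UMIs of cycle genes in plasma cells, gated T cells, the myeloid gate and all other passing cells, with exact 95% intervals for counting error, after thinning to 500 UMIs (left) and to 300 UMIs outside immunoglobulin genes (right). The plasma cells of the library labelled liver TIL are the lowest of the 3 in both panels (42.9% and 36.6%). All other passing cells of that library are also the lowest of the 3 (49.0% and 32.6%).

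Summed levels gave the same order. Cycle genes had 8515 CPM (7911 to 9153) in plasma cells of liver PC, 5636 CPM (5276 to 6015) labelled liver TIL and 7190 CPM (6244 to 8239) labelled heart TIL, against 9429, 7462 and 8194 CPM in gated T cells and 3102, 2044 and 3555 CPM in the myeloid gate. Before thinning, 3 of 56, 45 of 238 and 3 of 35 plasma cells had no cycle UMI, and 26, 25 and 8 had at least 10. The cells with at least 10 spread the signal unevenly, and the highest held 60, 39 and 25 cycle UMIs.

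Single genes of the list differed in their order. Rrm2, the S phase subunit of ribonucleotide reductase, had 474, 434 and 695 CPM in plasma cells, against 208, 233 and 199 CPM in gated T cells. Birc5, a mitotic survivin, had 463, 360 and 417 CPM, against 492, 453 and 555 CPM in gated T cells. Hmgb2, a chromatin protein of dividing cells, had 532, 385 and 486 CPM against 1024, 903 and 1005 CPM. Rrm2 was thus higher in plasma cells than in T cells of each library, whereas Hmgb2 was lower.

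By class, cycle UMIs were counted without thinning, and the classes differed in depth, with a median of 850 UMIs in IgA and 1444 in IgM cells of the library labelled liver TIL. There 107 of 202 IgA cells, 19 of 26 IgG cells and 6 of 8 IgM cells had at least 2, and no difference between classes is read from these counts. In liver PC the same counts were 18 of 21, 20 of 23 and 10 of 12, and in the library labelled heart TIL 8 of 13, 7 of 10 and 10 of 11.

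Genes of other cell types were also present. The T and NK cell list of 16 genes had 0.265%, 0.403% and 0.549% of UMIs outside immunoglobulin genes in plasma cells and 1.64%, 1.06% and 1.75% in the other cells, and its defining genes were limited by the rule. The macrophage and monocyte list of 14 genes had 0.691%, 1.12% and 1.04% against 1.82%, 2.22% and 2.33%, with Csf1r at 0 by the rule and Adgre1, Cd68, Fcgr1 and Fn1 also at 0 labelled heart TIL. The erythroid list of 8 genes had 3.01% in plasma cells of the library labelled liver TIL against 5.43% in its other cells, and 0.00116% and 0.0174% in liver PC and the library labelled heart TIL. In the plasmacytoid dendritic cell list, 2 of 3, 2 of 3 and 1 of 1 counted genes were at least 2-fold higher. In each library 0 were at least 2-fold lower, and 17%, 14.4% and 18.3% of all genes counted were higher. Siglech of this list had 1 UMI in liver PC and 0 in the other 2 libraries. Bst2, which plasma cells also express, had 821, 975 and 868 CPM. The part of these transcripts in any difference between libraries was not tested.

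One gene of the cardiomyocyte list was high in plasma cells of every library. Myl4, an atrial myosin light chain, had 24 UMIs in 16 cells of liver PC, 25 in 24 cells labelled liver TIL and 10 in 8 cells labelled heart TIL, or 278, 155 and 347 CPM, against 22.9, 21.8 and 21.4 CPM in the other cells. The other 7 genes of the list were at 0 in plasma cells of liver PC and of the library labelled heart TIL.

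Differences between libraries were listed by size, since no test was possible. A gene outside the immunoglobulin loci was counted when plasma cells of either library held at least 10 of its UMIs, and passed when its CPM differed at least 2-fold with at least 10 UMIs in the higher library. Between the library labelled liver TIL and liver PC, 388 of 2485 genes were higher (15.6%) and 187 lower (7.53%), and 329 genes (13.2%) also passed the difference of the other cells by 1 on the log2 scale. Between the library labelled heart TIL and liver PC, 76 of 1443 were higher (5.27%) and 244 lower (16.9%), and 208 (14.4%) passed both. Between the libraries labelled liver TIL and heart TIL, 511 of 2416 were higher (21.2%) and 47 lower (1.95%), and 437 (18.1%) passed both. In each pair, the library whose plasma cells held more UMIs had more genes on its higher side. An exact interval of the ratio left out 1 for 329 of 575, 127 of 320 and 83 of 558 of these genes. Genes with 0 UMIs in 1 library passed on folds set by the pseudocount of 1 CPM. Timp1 passed both between labelled liver TIL and liver PC, though its interval began at log2 1.24 and the other cells differed by 4.66. Bcl2l11, at 0 labelled heart TIL, passed both with bounds of only 1.89-fold against liver PC and 1.85-fold against labelled liver TIL. For such genes the counts show neither pass.

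**Figure D5:**
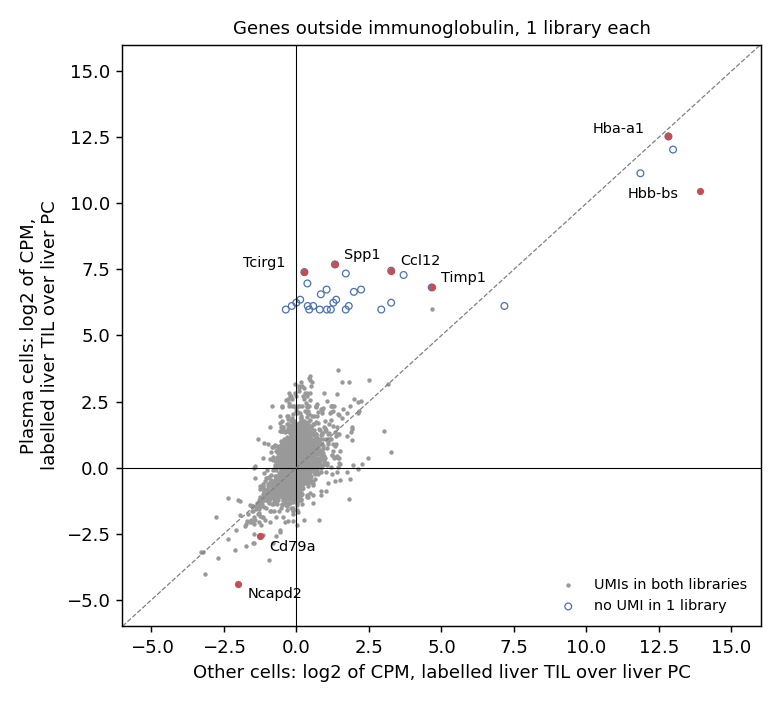
Each point is 1 gene, placed by its log2 fold between the library labelled liver TIL and liver PC in plasma cells (vertical) and in all other passing cells (horizontal), with open circles for genes without a UMI in 1 library and a dashed line where both folds are equal. The haemoglobin genes sit at or below the line at the upper right, and Spp1, Ccl12, Tcirg1 and Timp1 are among the open circles, with 0 UMIs in plasma cells of liver PC, whose height is set by the pseudocount of 1 CPM and is not read against the line.

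Of the 5 secretory lists, 4 held few of these genes between the library labelled liver TIL and liver PC. Of the chaperone list 0 of 26 genes passed, of the degradation list 0 of 10, of the translocon list 1 of 27 as lower and of the ER to Golgi list 2 of 20 as higher. Their median log2 folds were 0.18, 0.07, -0.04 and 0.19, beside 0.15 over all 2485 genes, of which 15.6% passed as higher and 7.53% as lower. Of the regulators of the unfolded protein response, 5 of 14 had enough UMIs to be counted, and 3 were higher and 1 lower, with a median log2 fold of 1.81, where the median of the other cells was 0.95. The summed level of all 14 was no higher there than in liver PC, with overlapping intervals (757 and 821 CPM). Between the libraries labelled liver TIL and heart TIL 4 of 5 regulators were higher and 0 lower (median log2 1.19, other cells 0.41), where 21.2% of all genes were higher. Between the library labelled heart TIL and liver PC 3 of 25 chaperones were lower and 0 higher, where 16.9% of all genes were lower. Cycle genes passed as lower in the library labelled liver TIL than in liver PC for 4 of 17 S phase and 3 of 16 G2 and M phase genes, and 0 as higher. Over all genes of this pair 7.53% were lower, and the median of the other cells was also below 0 (-0.61 and -0.56). Between the libraries labelled liver TIL and heart TIL 3 of 15 S phase and 3 of 16 G2 and M phase genes passed as higher and 0 as lower. Those counts are near the 21.2% higher and 1.95% lower over all genes of that pair. The medians of these cycle genes were -0.16 and -0.37, beside -0.39 and -0.56 in the other cells. Macrophage and monocyte genes passed as higher in the library labelled liver TIL than in liver PC for 8 of 11 and as lower for 1, with a median of 1.44 beside 0.59 in the other cells. Over all genes of this pair 15.6% were higher and 7.53% lower. Neutrophil genes went the other way, with 3 of 5 lower there (median -1.46, other cells -1.34) and 5 of 5 lower in the library labelled heart TIL than in liver PC (median -2.21, other cells -0.76). In the latter pair 16.9% of all genes were lower.

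Several of the genes with the largest differences are known from other cells. Spp1, osteopontin, of macrophages and stroma, had 33 UMIs in 23 plasma cells of the library labelled liver TIL and 0 in liver PC, which makes it at least 5.90-fold higher against a limit of 3 UMIs per library, with the UMIs of the higher library taken as exact in this and the following bounds. Ccl12, a monocyte chemokine, had 28 UMIs in 21 cells and 0, at least 5.01-fold higher, and Ccl7, another one, 25 UMIs in 23 cells and 0, at least 4.47-fold higher. The other cells of these libraries differed in the same direction, with log2 folds of 1.32 for Spp1, 3.26 for Ccl12 and 3.69 for Ccl7. On the log2 scale the exact intervals of the plasma cells began at 2.18 for Spp1, 1.93 for Ccl12 and 1.75 for Ccl7. Those of Ccl12 and Ccl7 thus began below the difference of the other cells. Tcirg1, a proton pump subunit, had 27 UMIs in 25 cells and 0, at least 4.83-fold higher. Its exact interval began at a log2 fold of 1.87, and the other cells differed by 0.27.

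Lower in the library labelled liver TIL than in liver PC were the condensin subunit Ncapd2 (1 UMI against 13, log2 -4.39, -10.01 to -1.86), the nucleolar helicase Ddx21 (3 against 12, log2 -2.83, -5.36 to -1.01) and Cd79a (6 against 20, log2 -2.60, -4.24 to -1.27). The other cells differed in the same direction, with log2 folds of -2.01, -0.80 and -1.26. Pou2af1 was also lower there (log2 -1.11, -1.66 to -0.57), where the other cells differed by 0.37.

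Between the library labelled heart TIL and liver PC the listed genes again had small counts. The mitochondrial chaperone Hspd1 had 28 UMIs in 13 plasma cells of liver PC and 0 labelled heart TIL, at least 3.11-fold lower. Of these UMIs 10 lay in 1 cell, and the other cells differed by a log2 fold of -0.56. The complement gene C1qb had 40 UMIs in 24 cells labelled heart TIL and 32 in 21 cells of liver PC (log2 1.91, 1.20 to 2.63), and the cytotoxic granule gene Nkg7 34 UMIs in 20 cells and 27 in 18 (log2 1.92, 1.15 to 2.70). Both are genes of macrophages and of T and NK cells, and the other cells differed by 0.58 and 0.38. Between the libraries labelled liver TIL and heart TIL, Hba-a2, an alpha globin, had 674 UMIs in 200 cells and 0, at least 40.1-fold higher. Its exact interval began at a log2 fold of 5.03, below the 7.09 by which the other cells differed. Hp, haptoglobin, a hepatocyte product, was lower in the library labelled liver TIL (7 UMIs against 13, log2 -3.35, -4.94 to -1.95), and the other cells differed by -1.77.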

How the data were processed

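Cell suspensions of grafts and recipient blood were profiled by Microwell-seq, 1 library per organ and fraction. The authors deposited a table of UMI counts per gene and barcode for each library; per the study's methods, reads went through the Drop-seq tools and STAR 2.5.2a against GRCm38 release 88. The tables list only detected genes, so a gene that is not listed was taken as a count of 0. Every table column belonged to 1 sample (0 columns were left unmatched), and each library held 10000 barcodes. Total UMIs were 19171264 in liver PC, 8543672 in the library labelled liver TIL and 9306582 in the library labelled heart TIL.

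The plasma cells and the gene lists were chosen with earlier results of these data known. Cells were filtered at 500 UMIs and 10% mitochondrial UMIs, and no doublet caller was run. Counts were summed per library over the plasma cells and over the other passing cells. Immunoglobulin genes were scaled to all UMIs and other genes to CPM of UMIs outside immunoglobulin genes. Thinning drew UMIs without replacement with random seed 0. With 1 library per group no test was made. Genes were named from the lists or, per pair of libraries, among the 10 with the largest fold in each direction that passed the rule of size and the difference of the other cells. For genes at 0 UMIs in 1 library, both the rank and the pass were set by the pseudocount of 1 CPM. The rule of size was tested on simulated data, in which unchanged genes also passed it, so a count of genes past it includes counting error. Intervals have a level of 95%, and a count of 0 allows up to 3 counts. Python 3.11.15, NumPy 2.4.6, SciPy 1.17.1 and Matplotlib 3.10.9 were used.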

Additional observations from a re-analysis of the deposited data

How the results depend on the processing

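The share of plasma cells rose when the limits on T cell genes and Csf1r were left out, to 0.94% in liver PC, 3.67% in the library labelled liver TIL and 0.807% in the library labelled heart TIL. It was 1.68% in the library labelled liver TIL at a marker sum of at least 6, and 3.94% there and 0.534% in the library labelled heart TIL among cells with at least 1000 UMIs. The library labelled liver TIL was the highest under each of these settings.

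In cells with at least 1000 UMIs, Ighm led in 6.90% of plasma cells labelled liver TIL, and kappa in 100% of those labelled heart TIL. The median immunoglobulin share was 28.9% labelled liver TIL with at least 1000 UMIs, and without the limits on T cell genes and Csf1r, a setting added after seeing the data, 20.5% in liver PC and 29.8% labelled liver TIL. The secretory lists took 6.57% in liver PC without the 5% of cells with the most UMIs, against 6.45% labelled liver TIL, 6.75% labelled liver TIL in cells with Jchain at 10 and a marker sum of 6 or more, and 4.76%, 4.41% and 4.72% of all UMIs. Both the first and the last of these turned the order of liver PC and the library labelled liver TIL.

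The share of plasma cells with cycle UMIs was 85.7%, 55.9% and 74.3% unthinned and 82.1%, 68.5% and 82.9% at 1 UMI or more. At 3 or more it was 27.3% labelled liver TIL, where liver PC had 50%. The other passing cells had 29.6% and 48.0% at that setting. Between the library labelled liver TIL and liver PC the count of genes past the rule of size was 153 at 30 UMIs or more, 224 at 3-fold and 329 with an exact interval of the ratio apart from 1, a setting added after seeing the data. Between the library labelled heart TIL and liver PC it was 55, 167 and 127, and between the libraries labelled liver TIL and heart TIL 99, 302 and 83. A higher minimum or fold leaves fewer genes by construction. The other 97 of 129 alternative values stayed within the counting interval of the reported value or, for counts of genes, within 1.5 times of it. No paired analysis was possible because each group holds 1 library. The number of plasma cells, 35, limits the library labelled heart TIL, and a median of 852 UMIs per cell the library labelled liver TIL.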
